A study of Homo sapiens with 6 samples.

Results

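The E2F transcription factors and the RB family of pocket proteins were followed in SKOV3, an established human ovarian cancer cell line, kept for 48 h with fenbendazole at 1 µM or with its vehicle DMSO. Members were the rows of the deposited gene table whose symbol was E2F1, E2F2, E2F3, E2F4, E2F5, E2F7, E2F8, RB1, RBL1 or RBL2, which gave 10 of the 61552 genes listed. All 10 passed the filter on low counts and were among the 17363 genes tested. Poly(A) RNA was sequenced in 3 libraries of fenbendazole-treated cells (numbered 7, 8 and 9 in the titles) and 3 libraries of DMSO-treated cells (10, 11 and 12). Whether the libraries of a group came from separate cultures is not in the labels, so p-values here cover the spread from library to library, which could be technical.

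E2F factors bind DNA at the promoters of genes needed for S phase, most of them as dimers with a DP protein (TFDP1 or TFDP2). In textbook terms E2F1, E2F2 and E2F3 activate these genes and are held in check by RB1, the retinoblastoma protein. E2F4 and E2F5 act with the pocket proteins RBL1 (p107) and RBL2 (p130) as repressors in quiescent and early G1 cells. Cyclin-dependent kinases phosphorylate the pocket proteins and free the activators. E2F7 and E2F8 are atypical members that bind DNA without a DP partner or a pocket protein and repress E2F targets from S phase onward. Several members, E2F1 and RBL1 among them, are themselves known E2F targets.

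The stretches before the starts of E2F1, RBL1 and E2F7 are shown because E2F7 and RBL1 rose with fenbendazole and E2F1 is the textbook activator. They are RefSeq promoter windows on GRCh38.p14, given 5′ to 3′ on the gene's own strand up to the base before the start. Capitals mark every match to the E2F site letters TTTCGCGC, TTTGGCGC, TTTCCCGC or TTTGCCGC on either strand. These matches do not overlap each other.
E2F1, chr20:33686386-33686635, minus strand: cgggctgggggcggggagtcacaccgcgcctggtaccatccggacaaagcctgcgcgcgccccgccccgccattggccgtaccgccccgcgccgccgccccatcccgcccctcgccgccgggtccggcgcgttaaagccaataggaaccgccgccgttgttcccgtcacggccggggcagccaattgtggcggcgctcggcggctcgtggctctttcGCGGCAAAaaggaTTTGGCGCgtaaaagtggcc
RBL1, chr20:37095998-37096247, minus strand: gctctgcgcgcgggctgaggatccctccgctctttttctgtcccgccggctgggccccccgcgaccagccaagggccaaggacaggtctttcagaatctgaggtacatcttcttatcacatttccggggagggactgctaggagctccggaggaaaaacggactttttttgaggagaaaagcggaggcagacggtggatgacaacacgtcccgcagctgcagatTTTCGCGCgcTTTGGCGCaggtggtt
E2F7, chr12:77065570-77065819, minus strand: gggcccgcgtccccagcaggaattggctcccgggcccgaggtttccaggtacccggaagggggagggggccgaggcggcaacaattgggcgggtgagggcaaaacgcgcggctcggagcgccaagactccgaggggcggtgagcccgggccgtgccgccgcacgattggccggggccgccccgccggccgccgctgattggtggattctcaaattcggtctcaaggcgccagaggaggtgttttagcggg

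In RBL1 the pair of matches lay at positions -26 to -19 (TTTCGCGC) and -16 to -9 (TTTGGCGC) from the start. In E2F1 they lay at -33 to -26 (TTTGCCGC on the other strand) and at -20 to -13 (TTTGGCGC). The windows of E2F2 (TTTGGCGC) and E2F3 (TTTCCCGC on the other strand) held 1 match each, and E2F3 had a second window with 0. The windows of E2F4, E2F7 and RBL2 held 0, as did that of RB1, which lies within the gene's span and not at its deposited start. No RefSeq window was available for E2F5 or E2F8, so these genes were not searched. In all, 4 of 10 windows of 8 members held a match, against 3.31% of 35116 RefSeq windows of the same length. The windows were not matched for base composition. A match describes letters only and gives no evidence of binding here.

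With fenbendazole both atypical repressors and 1 of 3 pocket proteins rose, and no other member passed the threshold. E2F7 was 4.35-fold, E2F8 3.01-fold and RBL1 1.99-fold higher. The activators E2F1 and E2F2 were each 2.13-fold higher with groups that did not overlap but missed the threshold. RB1, RBL2, E2F4 and E2F5 had groups that overlapped. By edgeR's quasi-likelihood test and a Benjamini-Hochberg adjusted p of 0.05, 3 of 10 members were higher and 0 lower, against 3.11% of all tested genes higher (540) and 0.921% lower (160). The count of members higher was 5 with DESeq2 (6.65% of all tested genes higher), 2 with upper-quartile scaling (2.62%) or FPKM (3.51%), 1 without fenbendazole 7, 8 or 9 (0.763%, 0.787% and 0.793%) and 2 without DMSO 10 (1.4%) or 12 (2.32%). At an adjusted p of 0.01 it was 1, against 1.21% of genes in either direction. With upper-quartile scaling the split over all genes was 455 higher and 231 lower. The members' median log2 fold change was 0.71, against -0.06 over all tested genes. In 6 of 10 members every fenbendazole library lay above every DMSO library in CPM (reads scaled to a common library size with TMM factors), as in 17% of all tested genes.

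One DMSO library stood apart, and it bears on several members. Totals ran from 13170775 counts in DMSO 12 to 22128930 in DMSO 11. DMSO 11 differed by more than 2-fold from both other DMSO libraries in 2187 genes, against 285 to 509 such genes for each of the other 5 libraries within its own group. Its departure followed the GC content of the transcripts. Set against the mean of DMSO 10 and 12, the median gene was at -0.70 in log2 in the lowest of 5 GC classes of like size and at 0.98 in the highest. With all 6 libraries the median log2 fold change of fenbendazole over DMSO was 0.21 in the lowest class and -0.48 in the highest. The median over all tested genes is therefore not a like baseline for every member. Mitochondrial genes took 3.17% of the counts of DMSO 11 and 3.79% to 4.19% elsewhere. For all 10 members, values are therefore given with and without DMSO 11. Without it 8 members passed the threshold, 7 higher and 1 lower, against 13.1% and 9.23% of 17689 genes. That fit leaves out the control that differs most, and its p-values may for that reason be too small.

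**Figure D1:**
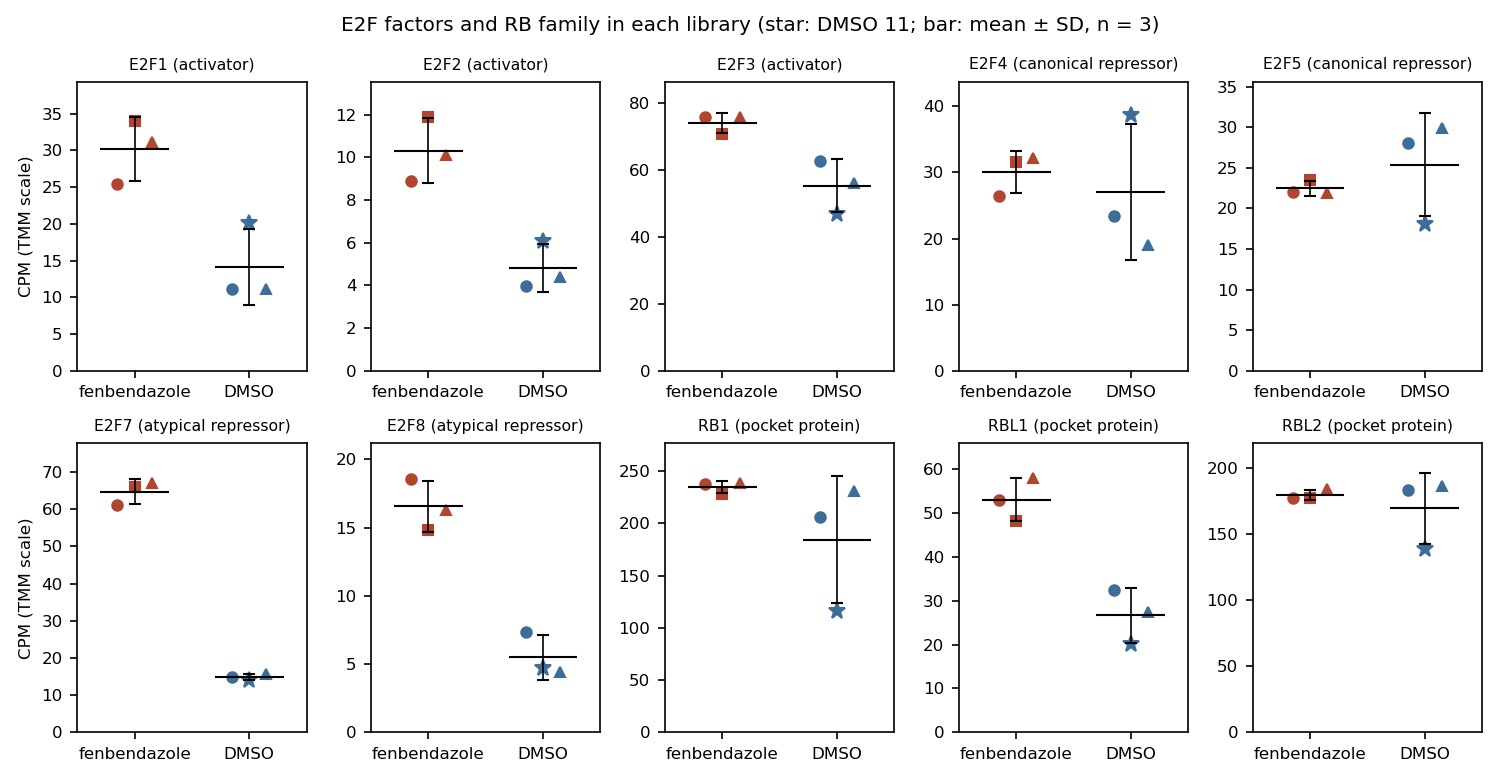
Level of each member in CPM on the TMM scale, linear axis from 0, with fenbendazole libraries on the left and DMSO libraries on the right of each panel; points are libraries, the star is DMSO 11, and bars give the mean ± SD (n = 3 each). E2F7 sits between 60.97 and 67.1 CPM in fenbendazole libraries and between 14.1 and 15.7 CPM in DMSO libraries, while E2F4 and RB1 are spread in DMSO by the star.

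With all 6 libraries and no correction for GC content, the atypical repressors changed most among the members. E2F7 (ENSG00000165891, chromosome 12, 77021248 to 77065569, GRCh38) had 60.97, 66.03 and 67.1 CPM in fenbendazole libraries 7, 8 and 9, against 14.8, 14.1 and 15.7 CPM in DMSO libraries 10, 11 and 12. The gap between the groups was far wider than the spread within either, and DMSO 11 lay with the other controls. Its log2 fold change was 2.12 ± 0.142 (SE, adjusted p = 0.000807, edgeR), and it passed the threshold in all 15 fits, with values from 1.65 on the FPKM scale to 2.17. Without DMSO 11 it was at 2.09 ± 0.111 (adjusted p = 1.49e-08). E2F8 (ENSG00000129173, chromosome 11, 19224063 to 19241620) had 18.5, 14.8 and 16.3 CPM in fenbendazole libraries, against 7.36, 4.74 and 4.39 CPM in DMSO libraries. All 3 treated libraries were above the highest control, DMSO 10. The log2 fold change was 1.59 ± 0.255 (SE, adjusted p = 0.0167, edgeR) and rested on 59 to 132 reads per control library. It was 1.49 ± 0.221 (adjusted p = 0.000285) without DMSO 11. The call of E2F8 was lost without fenbendazole 7 (adjusted p = 0.105), 8 (0.0765) or 9 (0.0984), and the value then stayed between 1.51 and 1.67.

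Among the activators the calls depended on DMSO 11 and on the test used. E2F1 (ENSG00000101412, chromosome 20, 33675477 to 33686385) had 25.4, 33.9 and 31.2 CPM in fenbendazole libraries, against 11.1, 20.1 and 11.2 CPM in DMSO libraries. DMSO 11 was the high control, and it still lay below the lowest treated library. The log2 fold change was 1.09 ± 0.275 (SE, adjusted p = 0.0785, edgeR) with all libraries and 1.45 ± 0.152 (adjusted p = 1.22e-05) without DMSO 11. E2F2 (ENSG00000007968, chromosome 1, 23506438 to 23531233) had 8.87, 11.9 and 10.1 CPM in fenbendazole libraries, against 3.96, 6.10 and 4.39 CPM in DMSO libraries. It had the fewest reads of the activators, 59 to 172 per library, and the groups did not overlap. Its log2 fold change was 1.09 ± 0.251 (adjusted p = 0.0592, edgeR) and 1.31 ± 0.221 (adjusted p = 0.000776) without DMSO 11. Both genes also passed the threshold with DESeq2 (adjusted p = 0.00472 for E2F1 and 0.00214 for E2F2).

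E2F3 (ENSG00000112242, chromosome 6, 20401879 to 20493714) encodes a long and a short form, E2F3a and E2F3b, from separate promoters, which gene counts do not separate. It had 76.0, 70.8 and 75.8 CPM in fenbendazole libraries, against 62.7, 46.95 and 56.2 CPM in DMSO libraries. The groups did not overlap, with DMSO 11 the lowest control. The difference was 0.42 ± 0.147 in log2 (adjusted p = 0.158, edgeR), and 0.33 ± 0.0876 (adjusted p = 0.0166) without DMSO 11. Its pseudogenes E2F3P1 and E2F3P2 had 0 to 7 reads per library.

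The canonical repressors E2F4 and E2F5 had overlapping groups. E2F4 (ENSG00000205250, chromosome 16, 67192155 to 67198918) had 26.5, 31.6 and 32.2 CPM in fenbendazole libraries, against 23.5, 38.7 and 19.0 CPM in DMSO libraries. DMSO 11 was the highest of all 6 libraries and DMSO 12 the lowest. The log2 fold change was 0.15 ± 0.271 (adjusted p = 0.777, edgeR), and 0.51 ± 0.138 (adjusted p = 0.0175) without DMSO 11. E2F5 (ENSG00000133740, chromosome 8, 85177154 to 85217158) had 22.05, 23.5 and 21.8 CPM in fenbendazole libraries, against 28.1, 18.1 and 29.9 CPM in DMSO libraries. Here DMSO 11 was the lowest library. The log2 fold change was -0.17 ± 0.217 (adjusted p = 0.674, edgeR), and -0.36 ± 0.117 (adjusted p = 0.0425) without DMSO 11. E2F5 overlaps RBIS on the opposite strand, which had 418 to 769 reads per library. The labels do not say that strand was kept, so reads of the pair cannot be told apart with certainty.

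Within the RB family only RBL1 passed the threshold. RBL1 (ENSG00000080839, chromosome 20, 36996349 to 37095997) had 52.9, 48.1 and 58.0 CPM in fenbendazole libraries, against 32.4, 20.1 and 27.4 CPM in DMSO libraries. Every treated library lay above every control, with DMSO 11 the lowest. The log2 fold change was 0.99 ± 0.203 (SE, adjusted p = 0.0418, edgeR). It was 0.83 ± 0.118 (adjusted p = 0.000192) without DMSO 11. The call was lost without fenbendazole 7 (adjusted p = 0.182), 8 (0.135) or 9 (0.208), without DMSO 10 (0.0627) or 12 (0.078), and with upper-quartile scaling (0.0558) or FPKM (0.0502).

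RB1 (ENSG00000139687, chromosome 13, 48303744 to 48599436) had 238 CPM in fenbendazole libraries 7 and 9 and 228 CPM in library 8, against 206, 116 and 231 CPM in DMSO libraries. DMSO 11 was the low library, and DMSO 10 and 12 were close to the treated libraries. The log2 fold change was 0.35 ± 0.241 (adjusted p = 0.434, edgeR), and 0.11 ± 0.0688 (adjusted p = 0.292) without DMSO 11. RBL2 (ENSG00000103479, chromosome 16, 53433977 to 53491648) had 177.1, 177.4 and 184 CPM in fenbendazole libraries, against 183, 139 and 186 CPM in DMSO libraries. Apart from DMSO 11 these 5 libraries lay close together. Its log2 fold change was 0.08 ± 0.145 (adjusted p = 0.766, edgeR), and -0.034 ± 0.0631 (adjusted p = 0.759) without DMSO 11. The RBL2 span overlaps AKTIP on the opposite strand (401 to 635 reads) and that of RB1 overlaps RCBTB2 (211 to 268 reads), so a part of their reads is uncertain.

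**Figure D2:**
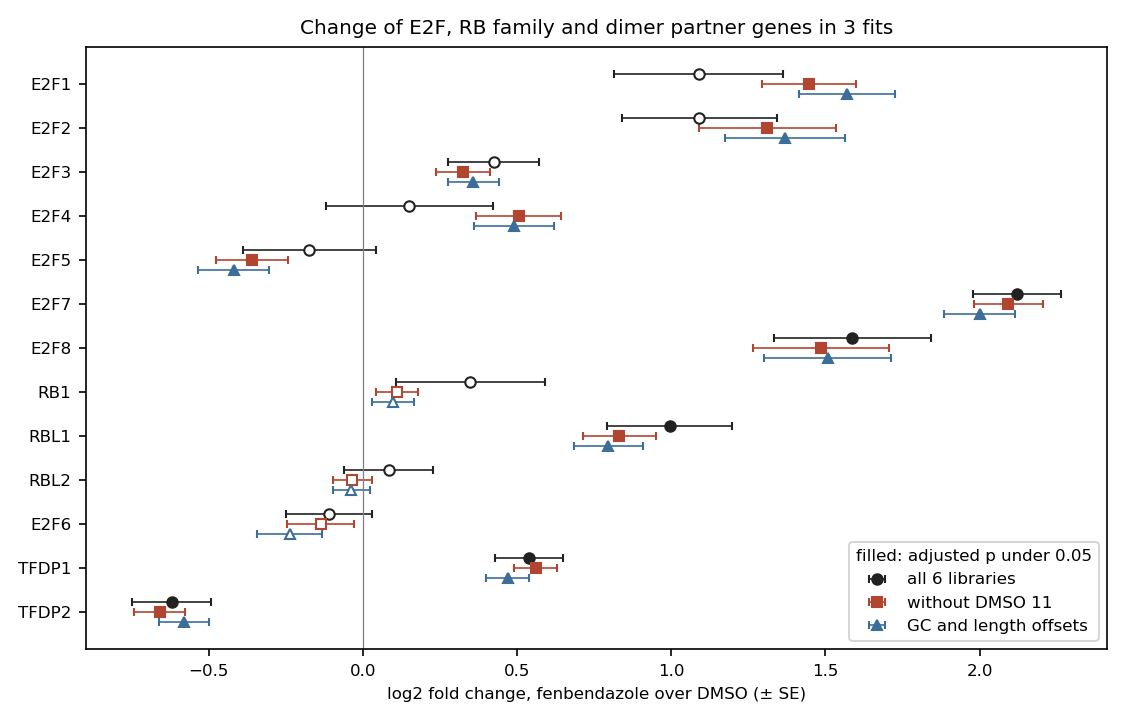
Log2 fold change of fenbendazole over DMSO for the members, E2F6 and the DP partner genes, with SE, in the fit of all 6 libraries, the fit without DMSO 11 and the fit with offsets for GC content and length; filled symbols have an adjusted p under 0.05. E2F7, E2F8 and RBL1 are filled in all 3 fits, and E2F1, E2F2, E2F3, E2F4 and E2F5 in the fit without DMSO 11 and the fit with offsets.

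The side on which DMSO 11 fell followed base composition across the members. E2F1, E2F4 and E2F2, whose longest transcripts have 62.5%, 59.3% and 57.5% GC, were 0.85, 0.87 and 0.54 log2 units higher in DMSO 11 than in the mean of DMSO 10 and 12. RB1 (37.3% GC), E2F5 (38.3%) and RBL1 (40.01%) were lower in it, at -0.92, -0.67 and -0.57. E2F7, E2F8, E2F3 and RBL2, with 43.1% to 45.9% GC, were at -0.11, -0.26, -0.34 and -0.41. Offsets for GC content and length, fitted with all 6 libraries, gave the same 8 members as leaving out DMSO 11, 7 higher and 1 lower, against 11.7% and 9.16% of all tested genes. In that fit E2F1 was at 1.57 ± 0.155, E2F4 at 0.49 ± 0.131, E2F5 at -0.42 ± 0.115 and RB1 at 0.098 ± 0.0675 (adjusted p = 5.23e-05, 0.0227, 0.0256 and 0.342, edgeR). E2F7 was at 2.00 ± 0.115 and E2F8 at 1.51 ± 0.205 in it, so E2F1 lay above E2F8 there. Whether base composition accounts for the departure of any one member was not tested.

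**Figure D3:**
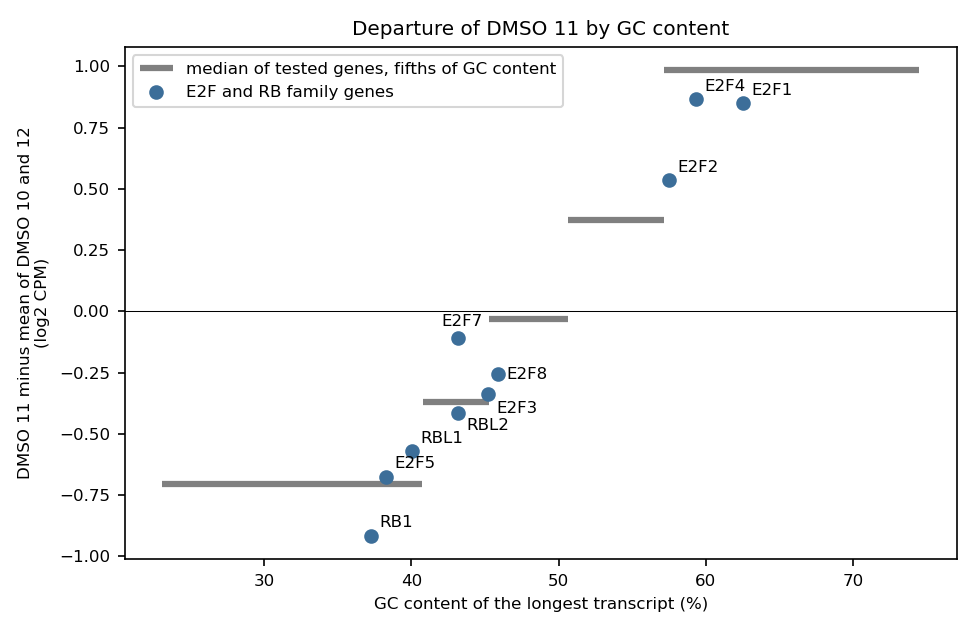
DMSO 11 minus the mean of DMSO 10 and 12 in log2 CPM, against the GC content of the longest transcript in percent; points are the 10 members and grey lines the medians of tested genes in 5 GC classes of like size. RB1 at 37.3% GC lies at -0.92 and E2F1 at 62.5% GC at 0.85, and the grey lines climb between -0.70 and 0.98.

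Levels per transcript length were compared in FPKM, as deposited. In fenbendazole libraries the order was RB1 (42.5 ± 0.836), RBL2 (28.6 ± 0.825), E2F3 (13.1 ± 0.494), E2F4 (13.1 ± 1.26), E2F7 (9.96 ± 0.540), E2F1 (9.54 ± 1.39), RBL1 (8.10 ± 0.579), E2F5 (5.93 ± 0.514), E2F8 (3.90 ± 0.395) and E2F2 (1.72 ± 0.335; SD, n = 3). The ranges of E2F3 and E2F4 overlapped, as did those of E2F7 and E2F1 and of E2F1 and RBL1. In DMSO libraries the order was RB1 (35.3 ± 10.5), RBL2 (29.4 ± 5.03), E2F4 (12.3 ± 4.69), E2F3 (10.2 ± 1.049), E2F5 (8.23 ± 1.71), E2F1 (4.77 ± 1.97), RBL1 (4.38 ± 0.884), E2F7 (2.48 ± 0.0346), E2F8 (1.35 ± 0.340) and E2F2 (0.836 ± 0.239; SD, n = 3). Only RBL2 and E2F4, RBL1 and E2F7, and E2F7 and E2F8 were neighbours whose ranges did not overlap. E2F7 was number 5 in the order with fenbendazole and number 8 in DMSO.

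By role, the mix of E2F transcripts differed. The activators summed to 22.99, 25.5 and 24.7 FPKM in fenbendazole libraries, against 15.5, 17.3 and 14.4 FPKM in DMSO libraries. The atypical repressors summed to 13.6, 13.8 and 14.2 FPKM in fenbendazole libraries, against 4.21, 3.70 and 3.59 FPKM in DMSO libraries. The canonical repressors overlapped, at 17.6, 20.9 and 18.7 FPKM with fenbendazole and 19.7, 23.8 and 18.0 FPKM in DMSO. Of the summed FPKM of the 7 E2F members, E2F7 and E2F8 made up 22.9% to 25.1% with fenbendazole and 8.25% to 10.7% in DMSO. E2F4 and E2F5 made up 32.5% to 34.7% with fenbendazole and 49.97% to 53.1% in DMSO. The activators made up 42.4% to 42.9% with fenbendazole and 38.7% to 40.05% in DMSO. In DMSO 10, 11 and 12 E2F4 alone made up 28.2%, 38.9% and 23.0%, and E2F5 alone 21.8%, 14.2% and 27.0%. Taken singly, the shares of E2F1, E2F3 and E2F4 overlapped between the groups, while those of the other E2F members did not. These shares describe RNA, carry no test, and in bulk RNA more cells in one phase of the cycle and more RNA per cell cannot be told apart.

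**Figure D4:**
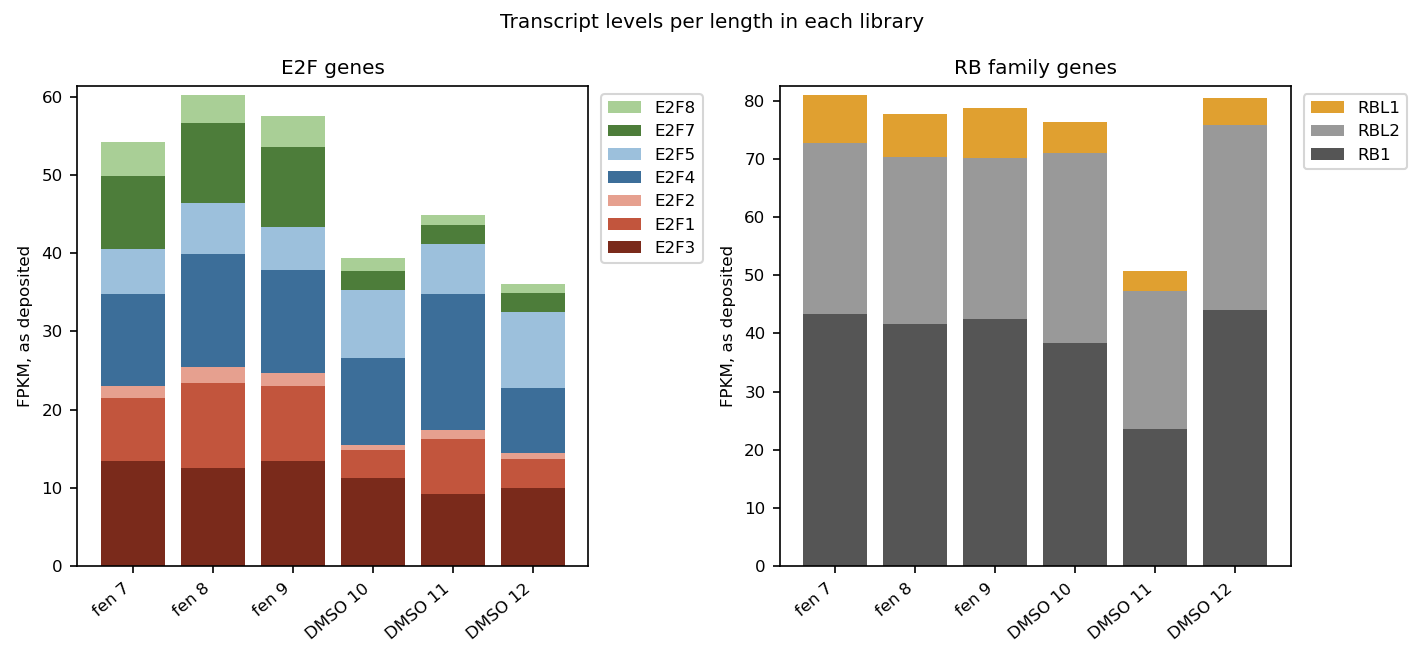
Deposited FPKM of the E2F members (left) and RB family (right), stacked, in fenbendazole libraries 7, 8 and 9 and DMSO libraries 10, 11 and 12. The E2F7 and E2F8 segments together reach 13.6 to 14.2 FPKM with fenbendazole and 3.59 to 4.21 FPKM in DMSO, and the RB1 segment is shortest in DMSO 11.

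Ratios within a library do not depend on scaling between libraries. RBL1 had 0.223, 0.211 and 0.243 reads per RB1 read in fenbendazole libraries, against 0.157, 0.173 and 0.119 in DMSO libraries. The groups did not overlap, and the ratio was 1.52-fold higher with fenbendazole. RBL1 had 0.299, 0.271 and 0.316 reads per RBL2 read in fenbendazole libraries, against 0.177, 0.145 and 0.148 in DMSO libraries, 1.89-fold higher. RBL2 had 0.745, 0.779 and 0.771 reads per RB1 read in fenbendazole libraries, against 0.891, 1.20 and 0.804 in DMSO libraries. This ratio was lower with fenbendazole by -0.31 in log2, with DMSO 12 close to the treated libraries, and by -0.15 without DMSO 11. E2F1 had 0.960, 1.07 and 0.967 reads per E2F4 read in fenbendazole libraries, against 0.473, 0.521 and 0.586 in DMSO libraries. That is 1.90-fold higher, with DMSO 11 between the other controls, unlike in either gene alone. For each of the 4 ratios the exact 2-sided permutation test gave p = 0.1 (0.1 after Benjamini-Hochberg adjustment over the 4), the smallest value that 3 libraries against 3 allow.

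The DP partners moved in opposite directions. TFDP1, the main dimer partner of E2F1 to E2F6, had 135, 132 and 131 CPM in fenbendazole libraries, against 90.0, 92.98 and 91.2 CPM in DMSO libraries. It rose by 0.54 ± 0.109 in log2 (adjusted p = 0.0388, edgeR). TFDP2, the other partner, had 86.7, 101 and 104 CPM in fenbendazole libraries, against 156, 140 and 153 CPM in DMSO libraries, and its log2 fold change was -0.62 ± 0.128 (adjusted p = 0.0421, edgeR). In both genes all treated libraries lay on one side of all controls, DMSO 11 included. Without DMSO 11, TFDP1 was at 0.56 ± 0.0695 (adjusted p = 5.83e-05) and TFDP2 at -0.66 ± 0.0825 (adjusted p = 6.43e-05). E2F6, a repressor that acts without pocket proteins, was at 30.7 ± 1.24 CPM with fenbendazole and 33.2 ± 1.60 CPM in DMSO (SD, n = 3 each; adjusted p = 0.677, edgeR). The calls of TFDP1 and TFDP2 were lost without fenbendazole 7 (adjusted p = 0.225 and 0.242), 8 (0.205 and 0.194) or 9 (0.206 and 0.175) and without DMSO 10 (0.131 and 0.132) or 12 (0.0811 and 0.0851). That of TFDP1 was also lost with upper-quartile scaling (0.0641) or no filter (0.0913), and both were lost on the FPKM scale (0.0759 and 0.0700).

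Of the 5 genes of the MuvB core, which joins RBL1 or RBL2 and E2F4 in the repressive DREAM complex, 0 passed the threshold by edgeR with all libraries. Of all tested genes 3.11% were higher and 0.921% lower in that fit. LIN9, LIN52 and LIN54 passed it together, all higher, in 3 other fits. These were without DMSO 11 (13.1% of all genes higher), with GC and length offsets (11.7%) and with DESeq2 (6.65%). Of 15 fits, LIN9 passed in 7, LIN52 in 4 and LIN54 in 3. The median log2 fold change of the 5 genes was 0.60 with all libraries. LIN9 had 26.4, 22.5 and 28.97 CPM in fenbendazole libraries, against 8.64, 3.60 and 11.98 CPM in DMSO libraries (adjusted p = 0.0641, edgeR, and 7.85e-05 without DMSO 11). LIN52 was at 12.6 ± 0.522 CPM with fenbendazole and 7.12 ± 0.705 CPM in DMSO, LIN54 at 45.98 ± 5.02 and 30.4 ± 6.05 CPM, RBBP4 at 244 ± 15.6 and 224 ± 29.1 CPM, and LIN37 at 3.44 ± 1.04 and 3.86 ± 0.654 CPM (SD, n = 3 each). In LIN9, LIN52 and LIN54, but not in RBBP4 or LIN37, every treated library lay above every control. That held in 17% of all tested genes.

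Upstream of the pocket proteins, 3 of 13 tested cyclins, CDKs and inhibitors rose and 0 fell, against 3.11% and 0.921% of all tested genes. The median over the 13 was 0.22 in log2. CDK2, which phosphorylates the pocket proteins with cyclin E, rose by 1.11 ± 0.139 in log2 (adjusted p = 0.00683, edgeR). CCND1, cyclin D1, rose to 680 ± 19.5 CPM with fenbendazole, against 393 ± 9.16 CPM in DMSO, and CCNE2, cyclin E2, rose to 21.4 ± 1.79 CPM, against 3.82 ± 2.20 CPM in DMSO (SD, n = 3 each). CCNE1, cyclin E1, was at 0.56 ± 0.202 in log2 (adjusted p = 0.176, edgeR). CDKN1A, the gene of the inhibitor p21, was at 0.037 ± 0.277 (adjusted p = 0.951, edgeR), with 15.6 ± 0.646 CPM with fenbendazole and 15.2 ± 5.95 CPM in DMSO. Without fenbendazole 7, 8 or 9, 0 of the 13 passed (0.763%, 0.787% and 0.793% of all tested genes higher). Without DMSO 10, 2 did, both higher and not CCNE2 (1.4%). Without DMSO 11, 5 passed, all higher, against 13.1% of all genes higher. They were CDK2 (1.12 ± 0.110), CCND1 (0.81 ± 0.0588), CCNE2 (2.24 ± 0.275), CDK4, a kinase of the pocket proteins (0.36 ± 0.0917), and CDKN2D, the gene of the CDK4 inhibitor p19 (1.33 ± 0.366; log2 fold change ± SE). CDK4 and CDKN2D were named after their values were seen. With all libraries CDK4 was at -0.10 ± 0.294 and CDKN2D at 0.42 ± 0.530 (adjusted p = 0.867 and 0.673, edgeR). With GC and length offsets 3 of the 13 passed, all higher, against 11.7% of all tested genes higher. CDK4 and CDKN2D did not pass. CDK4 was then at 0.042 ± 0.179 and CDKN2D at 0.99 ± 0.327 (adjusted p = 0.903 and 0.055, edgeR). The genes of the CDK4 inhibitors p16 and p15, CDKN2A and CDKN2B, which were picked out after their values were seen, had 0 to 6 and 0 to 1 reads per library and were not tested.

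Known G1/S targets of E2F factors rose broadly. Of 32 such genes, all tested, 27 rose and 0 fell, against 3.11% and 0.921% of all tested genes. The median was 1.39 in log2, and in 30 genes every treated library lay above every control, as in 17% of all tested genes. CCNE1 and CCNE2 are also in the list of cyclins, CDKs and inhibitors above, so the rise of CCNE2 is counted in both lists. The target list was drawn up with earlier results of these data known. Those with the smallest p were RRM2, a ribonucleotide reductase subunit (2.14 ± 0.154), CDC6, a helicase loader (1.78 ± 0.139), TYMS, thymidylate synthase (2.30 ± 0.178), MCM4, a helicase subunit (1.45 ± 0.128), CDC45, which activates the helicase (2.08 ± 0.198), and GINS1, a subunit of the same fork helicase (1.58 ± 0.153; log2 fold change ± SE). All 6 also passed the threshold with each library left out in turn. The number that rose was 16, 13 and 14 without fenbendazole 7, 8 and 9 (0.763%, 0.787% and 0.793% of all genes higher), 19 without DMSO 10 (1.4%), 30 without DMSO 11 (13.1%) and 25 without DMSO 12 (2.32%). Of the 26 genes with a RefSeq window, 18 of 42 windows held an E2F match as defined above (42.9%, against 3.31% of all windows). The genes were listed as known E2F targets, so such an excess says nothing of fenbendazole. Windows were not matched for base composition, and the excess was not tested.

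**Figure D5:**
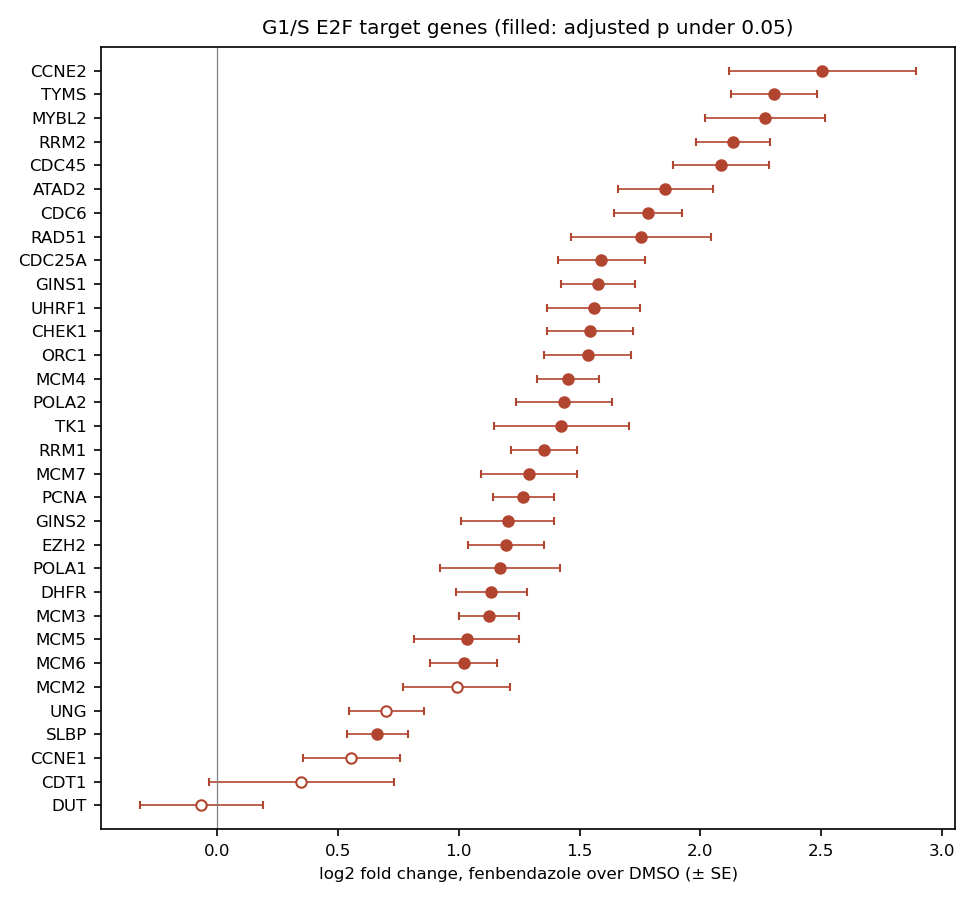
Log2 fold change of fenbendazole over DMSO with SE for the 32 G1/S E2F target genes with all 6 libraries; filled points have an adjusted p under 0.05. The filled points number 27, all right of 0, and the list's median is 1.39.

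For each member past the threshold, the 3 other genes most alike in pattern were found by the root mean square difference of log2 CPM over the 6 libraries, each gene centred on its own mean, among 11586 genes with at least 5 CPM on average. E2F7 was closest to AMTN, an enamel matrix gene (0.0711), PSMC3IP, which acts in recombination (0.109), and EME1, an endonuclease subunit (0.124). E2F8 was closest to CDC25C, a mitotic phosphatase (0.12), FANCD2, of the Fanconi anemia pathway (0.121), and SERTAD4 (0.16). RBL1 was closest to TMEM97 (0.0295), CTNNAL1, an alpha-catenin relative (0.0686), and CSE1L, a nuclear export factor (0.0776). The 6 libraries form 2 groups, so closeness here mostly reflects a like difference between groups and a like departure of DMSO 11.

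The label of an epithelial cancer line was checked against markers. ERBB2 was at 4394 ± 212.3 CPM with fenbendazole and 10757 ± 4454 CPM in DMSO, and KRT8, KRT18, KRT19, KRT7, EPCAM and MUC1 all had at least 15.6 CPM in every library. Among markers of leukocytes, fibroblasts and endothelium, PTPRC, CD3E, DCN, VWF and CDH5 had at most 0.53 CPM in any library, CD3E had 0 reads, and PDGFRB had at most 1.14 CPM. COL1A1 (34.8 to 80.4 CPM), COL1A2, CD68 and PECAM1 were higher, with at least 6.01 CPM in every library.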

How the data were processed

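The authors deposited raw whole-number counts per gene. Per the file headers, the same table holds FPKM for each of the 6 libraries. The submitters' processing notes name CASAVA 1.8, HISAT2 2.1.0, StringTie 1.3.4b and edgeR with the build GRCh38. How reads were assigned to genes, with which strand and multi-mapping rules and which annotation, is not given in the sources used here. Of 61552 identifiers, 61399 matched the name table.

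The test was the quasi-likelihood F test of edgeR 4.0.16 in R 4.3.3 (glmQLFit with robust dispersions, glmQLFTest, TMM scaling, filterByExpr), and p-values were adjusted by Benjamini-Hochberg over all 17363 tested genes. Standard errors follow from F. Levels are TMM-scaled CPM (mean ± SD). A count of 3, the floor of detection, corresponds to 0.136 to 0.228 CPM and covers counting error only. Replicates differed by more than sampling noise (chi-square per degree of freedom at least 5.17), so none was treated as a repeat. Ratios were tested by exact permutation (scipy 1.17.1). Simulated counts gave the fit little power for small differences. It called 0 of 67 genes at a true 1.5-fold difference and 15 of 67 at 2-fold. With a 4-fold difference the calls were 48 of 66, and with no difference 4 of 17163. A member that missed the threshold may therefore still differ by 2-fold or less.

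Alternatives were upper-quartile or median-of-ratios scaling, the test without a filter or with at least 1 CPM in each library of either group, DESeq2 1.42.0, limma-voom (limma 3.58.1), limma on log2(FPKM + 1), which understates changes of low genes, offsets for GC content and length (splines per library, longest GENCODE v29 transcript, 97.8% of tested genes), an adjusted p of 0.01 and leaving out each library. The FPKM fit kept genes with FPKM of at least 1 in 3 libraries.

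Members and gene lists were chosen with earlier results of these data known. Not every gene of the marker lists is reported here. Named genes were all members, DP partners, E2F6 and MuvB genes, the 4 upstream genes with the smallest p plus CCND1, CCNE1 and CDKN1A, the 6 targets with the smallest p and any that fell, and the 3 genes most alike to each called member. Promoter windows (250 bases before to 50 after a start) came from RefSeq. Figures were drawn with matplotlib 3.10.9.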

Additional observations from a re-analysis of the deposited data

How the results depend on the processing

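Against 700 genes and 3 members past the threshold, GC and length offsets gave 3620 genes and 8 members, DESeq2 1963 and 5, and an adjusted p of 0.01 gave 210 and 1 (E2F7). Leaving out 1 library gave 147 to 3946 genes and 1 to 8 members; the highest of both was without DMSO 11 and the lowest without treated libraries, and fewer libraries reduce power. The other scalings, filters, limma-voom and FPKM gave 674 to 858 genes and 2 or 3 members. No named gene called in the main fit (edgeR, all libraries, no offsets) turned direction. The genes most alike to called members were not followed over the fits. Among named genes uncalled in the main fit, some did. The log2 fold change of E2F4 was -0.044 without DMSO 12, and 0.51 without DMSO 11, where it passed the threshold. E2F4 also passed with GC and length offsets, at 0.49. The log2 fold change of RBL2 was -0.037 with GC offsets, -0.027 with FPKM and -0.034 without DMSO 11 (up to 0.16). That of LIN37 was 0.13 with GC offsets and 0.067 without fenbendazole 7 (down to -0.33), and that of RBBP4 was -0.0049 with GC offsets. That of CDKN1A was -0.028 with upper-quartile scaling, -0.11 without DMSO 10 and -0.12 without DMSO 12 (up to 0.42). CDK4, named after its values were seen, was at -0.10 in the main fit and 0.042 with GC offsets. Without DMSO 11 it was at 0.36 and passed the threshold. The 4 ratios kept their direction with FPKM and without each library, at 0.45 to 0.72 (RBL1 to RB1), -0.43 to -0.15 (RBL2 to RB1), 0.868 to 1.011 (RBL1 to RBL2) and 0.854 to 1.009 (E2F1 to E2F4) in log2 without 1 library; the cause was not tested. No paired analysis was possible because no replicate number occurs in both groups. Depth limits E2F2 and E2F8, with as few as 59 reads in a library.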
